A study of Rattus norvegicus with 8 samples.

Results

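The miR-200 family, a group of microRNAs (miRNAs) best known from epithelial cells, was examined in rat kidney. Its 8 members were taken by name among the 758 miRNAs of the array: miR-200a-3p, miR-200a-5p, miR-200b-3p, miR-200b-5p, miR-200c-3p, miR-141-3p, miR-141-5p and miR-429. Levels were measured on 8 one-colour Agilent rat miRNA arrays of total RNA from right kidneys. The rats were males of the inbred strain F344/NSlc, 10 weeks old in both groups. In 4 nephrectomized rats, labelled day 2 after surgery, the kidney examined was the one left after removal of the other. Controls were 4 sham-operated rats, labelled day 1, with each array taken as 1 rat. The study's design text gives 2 days without naming a shorter time for the sham group, and if the labels hold, the effects of surgery and of a further day cannot be told apart. The comparison addresses which miRNAs differ in a remaining kidney soon after the loss of its partner.

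miRNAs are short RNAs that lower the output of messenger RNAs, which they recognise mainly through the seed near their 5′ end. Members of the miR-200 family repress the transcription factors ZEB1 and ZEB2, which in turn repress E-cadherin, and the family is known for holding cells in an epithelial state. Epithelium of the tubules and collecting ducts makes up much of the kidney. Each hairpin precursor can yield a product from its 5′ side, the 5p arm, and from its 3′ side, the 3p arm.

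The family comes from a pair of clusters. In RefSeq's annotation of build GRCr8, the hairpins of miR-200b, miR-200a and miR-429 lie within 1908 bases at chr5:171929682-171931589 on the minus strand. The hairpins of miR-200c and miR-141 lie within 509 bases at chr4:159209525-159210033, also on the minus strand. The mature sequences below, from RefSeq and given 5′ to 3′ with the seed (bases 2 to 8) in capitals, show how the members fall into seed groups. Of the 8 members, 5 matched a mature entry, and miR-200a-3p, miR-200b-3p and miR-429 did not.
rno-miR-200c-3p: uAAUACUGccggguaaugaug
rno-miR-141-3p: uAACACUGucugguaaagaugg
rno-miR-200b-5p: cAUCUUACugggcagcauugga
rno-miR-200a-5p: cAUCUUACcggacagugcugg
rno-miR-141-5p: uCCAUCUUccagugcaguguug
The seeds of miR-200c-3p and miR-141-3p, neighbours on chromosome 4, differ by the single substitution U4C, counted from the 5′ end of miR-200c-3p. miR-200b-5p and miR-200a-5p have the same seed, and miR-141-5p has another.

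The hairpins of the chromosome 5 cluster are shown because they carry both 3p seeds within one locus; capitals mark the seed letters of miR-200c-3p or of miR-141-3p.
Mir200b, chr5:171931495-171931589: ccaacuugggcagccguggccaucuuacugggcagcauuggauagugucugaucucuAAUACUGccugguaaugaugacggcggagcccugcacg
Mir200a, chr5:171930717-171930805: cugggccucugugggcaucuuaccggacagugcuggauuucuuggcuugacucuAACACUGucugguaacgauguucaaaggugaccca
Mir429, chr5:171929682-171929766: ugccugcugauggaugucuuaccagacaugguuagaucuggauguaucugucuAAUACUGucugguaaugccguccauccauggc
AAUACUG occurs once in the hairpins of miR-200b, miR-429 and miR-200c, and AACACUG once in those of miR-200a and miR-141. Each of these strings, read on the hairpin strand, is present in 4 of the 419 rat hairpins of the table (0.955%).

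All 8 arrays lay on 1 slide, with the 4 nephrectomized samples in row 2 and the 4 sham samples in row 1, so slide row and surgery cannot be told apart. The nephrectomized arrays were dimmer. They detected 224 to 230 miRNAs each, against 242 to 253 on the sham arrays. The log2 75th percentile of detected miRNAs before scaling was 7.28 to 7.49 on nephrectomized arrays and 7.57 to 7.83 on sham arrays. Control RNA added before labelling read 9.94 to 10.35 on nephrectomized arrays and 10.52 to 10.61 on sham arrays, on the log2 scale. Control RNA added at hybridization read 13.31 to 13.35 on nephrectomized arrays and 13.36 to 13.38 on sham arrays. None of these measures, the number of detected miRNAs included, overlapped between the groups (exact two-sided permutation p = 0.0286 each, the smallest that 4 against 4 arrays can give). Each array was therefore scaled to its own 75th percentile, and the values below are the log2 of the scaled signal. The part of labelling, hybridization or slide row in the differences below was not tested.

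Of the 8 members, 6 were detected on all 8 arrays and entered the fit, and none of these 6 differed between nephrectomized and sham kidneys after adjustment. The 3p arms of the chromosome 5 cluster, miR-200b-3p, miR-200a-3p and miR-429, stood 2.33%, 2.28% and 1.63% below their sham level, with intervals that include it. Point estimates for miR-200c-3p, miR-141-3p and miR-200b-5p were 14.8%, 14.1% and 12.7% below sham. All 6 differences were below 0 with this scaling, but their signs did not hold under every processing. The sign of the first 3 turned when arrays were scaled to the labelling control, and that of miR-429 also under quantile normalization. The sign of the other 3 turned under the normexp background correction. That correction adds an offset of 50, and with it the median of all tested miRNAs was 0.13. Each difference below is the mean log2 signal of the nephrectomized arrays less that of the sham arrays, with its standard error (SE) from limma and the p adjusted by Benjamini-Hochberg over all 238 tested miRNAs.

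The 3p arms of the chromosome 5 cluster spread little within a group. miR-200b-3p, which shares its seed with miR-200c-3p and miR-429, read 9.99, 10.07, 10.12 and 10.09 on the nephrectomized arrays, against 10.10, 10.09, 10.03 and 10.18 on the sham arrays. The groups overlapped, and the means were 10.07 ± 0.055 in nephrectomized and 10.10 ± 0.060 in sham kidneys (SD, n = 4 each). The difference was -0.034 ± 0.045 (SE; limma adjusted p = 0.701), and its 95% interval ran from -0.14 to 0.070.

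miR-200a-3p, which has the other 3p seed, read 9.41, 9.27, 9.33 and 9.23 on the nephrectomized arrays, against 9.31, 9.38, 9.31 and 9.38 on the sham arrays. Both the highest and the lowest of its 8 values were nephrectomized samples. Its difference was -0.033 ± 0.048 (SE; limma adjusted p = 0.708), with an interval from -0.14 to 0.076. miR-429, the third hairpin of this cluster, read 9.31, 9.33, 9.39 and 9.37 on the nephrectomized arrays, against 9.37, 9.35, 9.35 and 9.41 on the sham arrays. Its values also overlapped and spanned the narrowest range of the 6 members tested. The difference was -0.024 ± 0.035 (SE; limma adjusted p = 0.715), with an interval from -0.10 to 0.056.

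In linear terms, the 95% intervals of these 3 miRNAs allowed at most 9.13%, 9.44% and 6.94% below the sham level for miR-200b-3p, miR-200a-3p and miR-429. The upper ends allowed 4.99%, 5.44% and 3.99% above it. These intervals take the scaling of the arrays as exact.

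The 3p arms of the chromosome 4 cluster spread more within a group. miR-200c-3p read 3.39, 3.29, 3.02 and 3.16 on the nephrectomized arrays, against 3.27, 3.53, 3.44 and 3.54 on the sham arrays. Of the sham samples, 3 lay above every nephrectomized sample, while sham replicate 1 lay below nephrectomized replicates 1 and 2. Means were 3.22 ± 0.16 in nephrectomized and 3.45 ± 0.13 in sham kidneys (SD, n = 4 each), a difference of -0.23 ± 0.093 (SE), and the limma p was 0.0373 before and 0.203 after adjustment.

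miR-141-3p, transcribed from the same cluster and carrying the seed of miR-200a-3p, read 4.67, 4.64, 4.54 and 4.53 on the nephrectomized arrays. On the sham arrays it read 4.55, 4.99, 4.92 and 4.79. Again sham replicate 1 lay among the nephrectomized samples and the other 3 sham samples lay above them. The difference was -0.22 ± 0.093 (SE), and the limma p was 0.0459 before and 0.233 after adjustment. The 95% intervals, which are not adjusted for the number of miRNAs, ran from 26.6% to 1.21% below the sham level for miR-200c-3p and from 26.0% to 0.353% below it for miR-141-3p.

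Among the 5p arms, only miR-200b-5p was detected. It read 3.07, 3.28, 3.24 and 3.50 on the nephrectomized arrays, against 3.56, 3.41, 3.32 and 3.60 on the sham arrays. The groups overlapped through nephrectomized replicate 4, and the difference was -0.20 ± 0.10 (SE; limma adjusted p = 0.302). Without nephrectomized replicate 1, its lowest value, the difference was -0.13.

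miR-200a-5p and miR-141-5p were detected on 0 of 4 nephrectomized and 0 of 4 sham arrays and were not tested. miR-200a-5p gave 1.32, 1.04, -0.089 and 1.14 on the nephrectomized arrays and 1.55, 1.33, 1.24 and 1.75 on the sham arrays. Each of its 2 probes had 0 of 32 spots well above background in either group, so these values carry no fold. miR-141-5p lay at the floor of -0.11 on all 8 arrays. The 5p arm of miR-200c, which is not one of the 8 members and was looked up after the others' values were seen, was likewise at the floor on all 8.

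**Figure D1:**
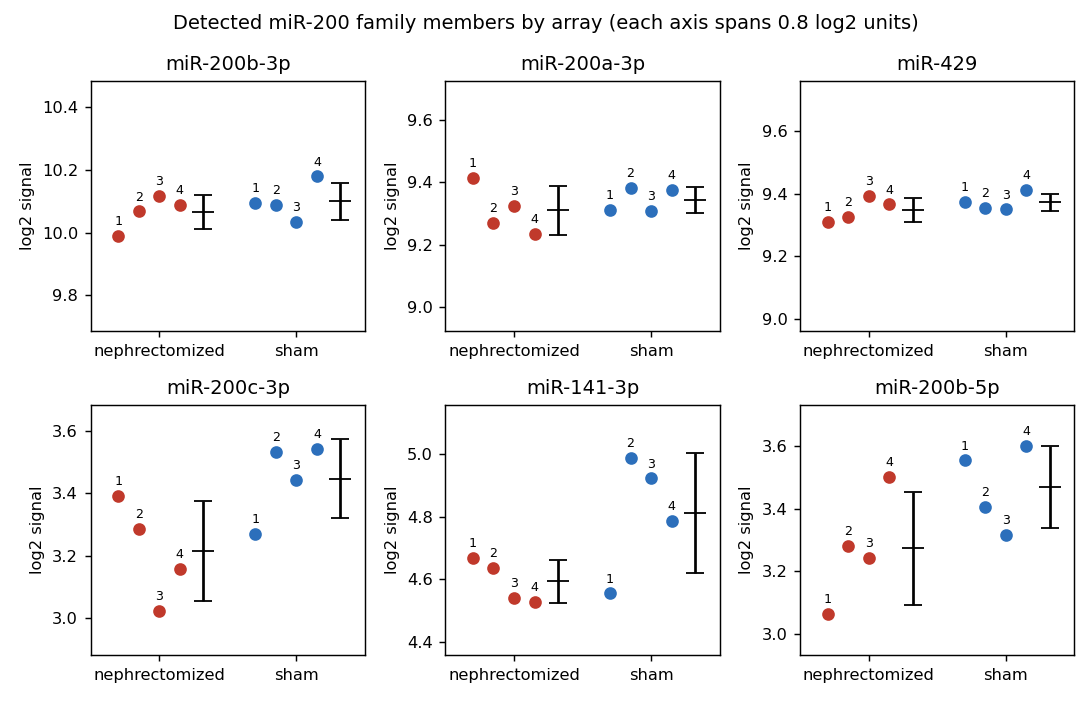
Log2 scaled signal (vertical axis, a range of 0.8 in every panel) of the 6 detected members in the nephrectomized and the sham kidneys; points are arrays numbered by replicate, and the bar beside them is the mean ± SD of 4. The groups overlap in all 6 panels, the upper row is tighter than the lower one, and sham replicate 1 sits low for miR-200c-3p and miR-141-3p.

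Across all tested miRNAs, 0 of 238 passed an adjusted p of 0.05 (0.0%), so the count of 0 among the 6 members equals the background. Without adjustment, limma gave p under 0.05 for 48 of 238 (20.2%), of which 11 were lower in nephrectomized kidneys (4.62%). Of the 6 members, 2 were in that lower set. Differences were below 0 for 6 of 6 members and for 125 of 238 miRNAs (52.5%). The median difference was -0.12 over the members and -0.0076 over all tested. The groups did not overlap for 35 miRNAs (14.7%), of which 10 were lower in nephrectomized kidneys (4.2%), and for 0 of 6 members.

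**Figure D2:**
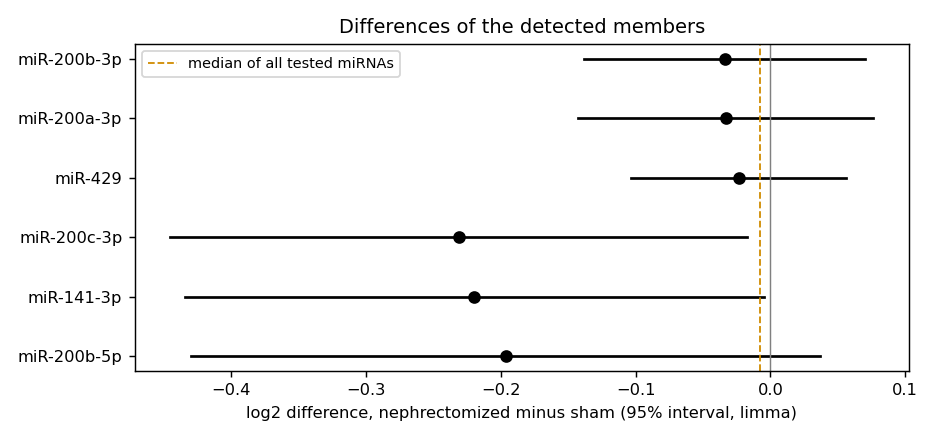
Log2 difference (horizontal axis, nephrectomized minus sham) of each detected member with its 95% limma interval, not adjusted for the number of miRNAs. The 3 upper members lie between -0.034 and -0.024; the 3 lower ones lie between -0.23 and -0.20 with wider intervals, and the signs turn under some scalings and background corrections.

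As the mean of its probes, miR-200b-5p of chromosome 5 lay with the chromosome 4 members in brightness and in its difference. Its longest probe alone averaged 4.68 in nephrectomized and 4.78 in sham kidneys and differed by -0.10, against -0.20 for that mean. The longest probes of miR-200c-3p and miR-141-3p differed by -0.15 and -0.18. Among the 3p arms, brightness and cluster ran together, so their parts in the differences cannot be told apart. miR-200b-3p, miR-200a-3p and miR-429 were among the brightest 60 of the 238 tested miRNAs, at mean levels from 7.32 to 12.4. Among these 60, the median within-group SD was 0.051, the median difference was -0.025, and 41 (68.3%) were below 0. miR-200c-3p, miR-141-3p and miR-200b-5p were among the 59 that follow the dimmest 60, at mean levels from 3.27 to 4.76. There the median within-group SD was 0.11 and the median difference was 0.023, with 25 of 59 miRNAs (42.4%) below 0 and 4 of 59 lower at an unadjusted p under 0.05. The differences of the 3 dimmer members lay below 0, as did those of 42.4% of these 59 miRNAs, the members included. Those of the 3 brighter members lay close to the median of the brightest 60. The part of brightness in the differences was not tested.

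Base content of the probes also ran with the differences over all miRNAs. The median was -0.058 for 37 miRNAs whose longest probe had under 40% G and C, and 0.10 for 51 with 60% or more. miR-200b-5p, at 60%, fell in the group with the highest median. miR-200c-3p, at 53.3%, and miR-141-3p, at 47.1%, fell in the middle groups, whose medians were -0.0013 and -0.011. The part of base content in the members' differences was not tested.

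**Figure D3:**
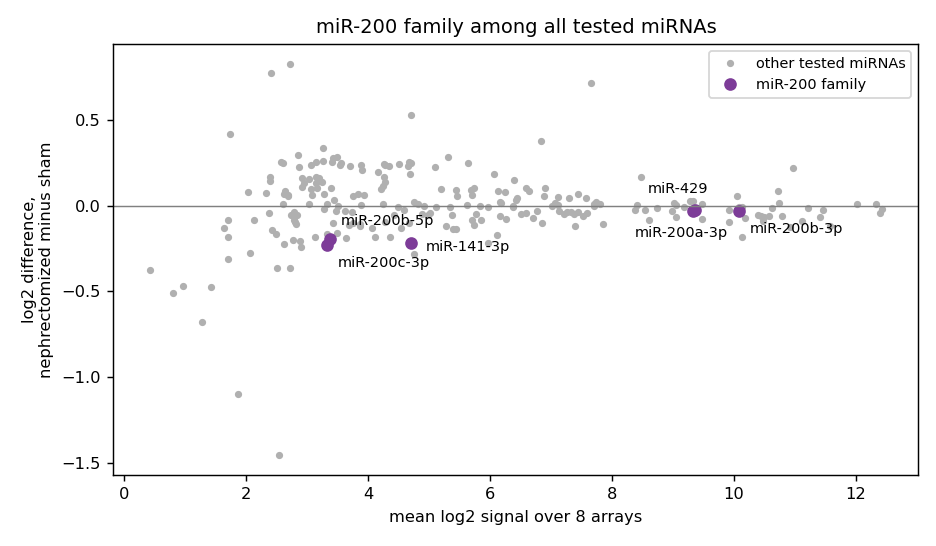
Log2 difference (vertical axis, nephrectomized minus sham) against the mean log2 signal over the 8 arrays (horizontal axis) for all 238 tested miRNAs, with the 6 detected members of the family in purple and named. The scatter widens toward the dim end, where miR-200c-3p, miR-141-3p and miR-200b-5p lie.

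Each member was read by 2 to 4 probes of different length, all complementary to the 3′ part of the miRNA. The longest miR-200c-3p probe pairs with bases 7 to 21 and the longest miR-141-3p probe with bases 6 to 22, so most of the seed lies outside the probe. The probes below are shown because members of the same family are told apart by few bases; they are given 5′ to 3′, and capitals mark the bases at which the probes of a pair differ.
miR-200c-3p probe: catcattaccCggca
miR-200b-3p probe: gtcatcattaccAggcag
miR-141-3p probe: CcatcTttaccagacag
miR-200a-3p probe: AcatcGttaccagacagt
Over the 15 bases they share, the miR-200c-3p probe differs from the miR-200b-3p probe by C11A, counted from the 5′ end of the miR-200c-3p probe. The miR-141-3p probe differs from the miR-200a-3p probe by C1A and T6G over 17 bases, counted from its own 5′ end. The part of pairing with the related miRNA in any of these values was not tested.

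The probes of each bright member gave similar differences. For miR-200b-3p the 17-base and 18-base probes differed by -0.071 and -0.019 between nephrectomized and sham kidneys, for miR-200a-3p by -0.047 and -0.027, and for miR-429 by -0.025 and -0.023. For the dimmer members only the longest probe of each was well above background at most of its spots in both groups. The 15-base probe of miR-200c-3p read 3.90, 3.81, 3.77 and 3.80 on the nephrectomized arrays, against 3.88, 4.02, 3.94 and 4.02 on the sham arrays, a difference of -0.15. Its 14-base probe read 2.61, 2.45, 1.37 and 1.99 on the nephrectomized arrays, against 2.18, 2.78, 2.67 and 2.83 on the sham arrays.

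That 14-base probe was well above background at 0 of 32 spots in either group, so its values carry no fold, although they enter the mean of the probes. The 15-base probe passed at 22 of 32 spots in nephrectomized and 32 of 32 in sham kidneys. For miR-141-3p, the 17-base probe passed at 32 of 32 spots in both groups. It read 5.37, 5.36, 5.30 and 5.24 on the nephrectomized arrays, against 5.25, 5.67, 5.61 and 5.46 on the sham arrays, a difference of -0.18. Its 16-base probe passed at 0 of 32 spots in nephrectomized and 26 of 32 in sham kidneys. For miR-200b-5p the 15-base probe passed at 16 of 16 spots in both groups and differed by -0.10. Its 14-base probe passed at 5 of 16 spots in nephrectomized and 16 of 16 in sham kidneys. Its 13-base probe passed at 0 of 16 in nephrectomized and 1 of 16 in sham kidneys. Its 12-base probe lay at the floor on all 8 arrays. These shorter probes also enter the mean of the probes.

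The scanner software's own value for a miRNA, the total gene signal, left out some probes on some arrays, and this bore directly on miR-200c-3p. Which probes it counted was inferred: they are those whose total signals summed to it within 0.1%. Its 15-base probe was counted on every array, whereas its 14-base probe was counted on 0 of 4 nephrectomized and 3 of 4 sham arrays. The total gene signal, linear and before scaling, was 7.73, 6.47, 6.64 and 7.31 on the nephrectomized arrays, against 8.22, 13.4, 14.4 and 14.3 on the sham arrays. The 14-base probe alone had total signals of 3.16, 2.51, 1.26 and 2.08 on the nephrectomized arrays, against 2.53, 3.98, 4.21 and 4.37 on the sham arrays. Sham replicate 1, the sham array on which this probe was left out, was the one near the nephrectomized values.

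With the total gene signal in place of the mean of the probes, the difference of miR-200c-3p was -0.53 (limma adjusted p = 0.0883), and in the authors' deposited value table it was -0.57 (limma adjusted p = 0.135). With the total signals of all its probes added on every array, an alternative chosen after seeing the data, it was -0.23 (limma adjusted p = 0.202). That equals the value of the main setting, which averages the same probes, so it is not a separate check. The longest probe alone gave -0.14. A probe was also counted unequally for miR-200b-5p, whose 13-base probe was counted on 1 of 4 nephrectomized and 4 of 4 sham arrays, and for miR-141-3p, whose 16-base probe was counted on 3 of 4 nephrectomized and 4 of 4 sham arrays. With the total gene signal, scaled as in the main setting, miR-200b-5p differed by -0.29 and miR-141-3p by -0.28. In the authors' deposited value table they differed by -0.34 and -0.32. That table is shifted otherwise per array, and its median over all tested miRNAs was -0.0665, against -0.0077 in the main setting. The probes of miR-200b-3p, miR-200a-3p and miR-429 were counted on all 8 arrays.

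**Figure D4:**
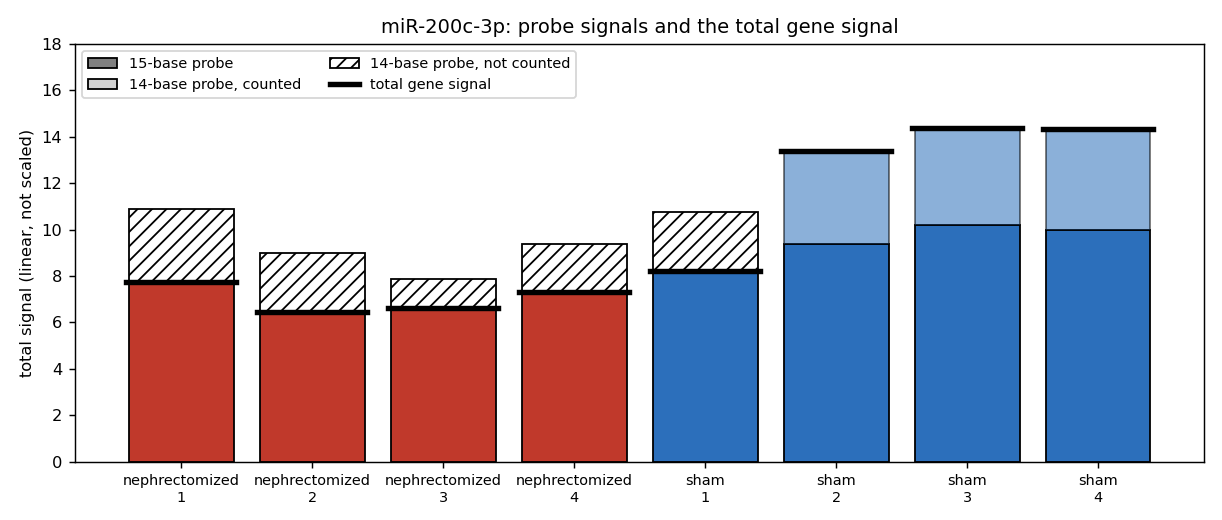
Total signal of the 2 miR-200c-3p probes on each array (vertical axis, linear and not scaled, stacked from 0), nephrectomized arrays in red and sham arrays in blue; hatched parts were measured but not counted by the scanner software, and the black bar is its total gene signal. The total gene signal includes the 14-base probe on sham replicates 2, 3 and 4 only.

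Ratios of 2 members on the same array do not depend on how the array was scaled, and were used to set the clusters and the arms against each other. Of 6 planned pairs, 4 had both members detected. The log2 ratio of miR-141-3p to miR-200a-3p, which share a seed, was -4.75, -4.63, -4.79 and -4.71 on the nephrectomized arrays, against -4.76, -4.40, -4.39 and -4.59 on the sham arrays. All but sham replicate 1 lay above the nephrectomized arrays, and the difference in the log2 ratio was -0.19 ± 0.094 (SE; exact permutation p = 0.143, adjusted over 4 pairs 0.190).

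For the other seed group, the ratio of miR-200c-3p to miR-200b-3p was -6.60, -6.78, -7.09 and -6.93 on the nephrectomized arrays, against -6.83, -6.56, -6.59 and -6.64 on the sham arrays. Here 2 of 4 sham arrays lay above every nephrectomized array. The difference in the log2 ratio was -0.20 ± 0.12 (SE; exact permutation p = 0.2, adjusted 0.2), and without nephrectomized replicate 3 it was -0.12. Against miR-429, the other member with this seed on chromosome 5, the log2 ratio of miR-200c-3p differed by -0.21 ± 0.12 (SE; exact permutation p = 0.143, adjusted 0.190), and by -0.13 without nephrectomized replicate 3. None of these ratios passed, so a difference between the clusters was not shown. The ratios also depended on the processing. With the normexp background correction the differences turned to 0.15 for miR-141-3p to miR-200a-3p, 0.22 for miR-200c-3p to miR-200b-3p and 0.20 for miR-200c-3p to miR-429 (exact permutation p adjusted over the pairs 0.0571, 0.0381 and 0.0381). With the total gene signal the last 2 were -0.50 and -0.51 (exact permutation p adjusted over the pairs 0.114 each).

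The arms of miR-200b were compared in the same way. The log2 ratio of miR-200b-5p to miR-200b-3p was -6.92, -6.78, -6.87 and -6.59 on the nephrectomized arrays, against -6.54, -6.68, -6.72 and -6.58 on the sham arrays. The groups overlapped, and the difference of -0.16 ± 0.086 (SE) had an exact permutation p of 0.114 (adjusted 0.190). With normexp it turned to 0.24 (exact permutation p adjusted over the pairs 0.0381), and with the total gene signal it was -0.26 (adjusted 0.114). By seed, the median difference was -0.034 for miR-200b-3p, miR-200c-3p and miR-429, and -0.13 for miR-200a-3p and miR-141-3p. By cluster, the median difference of the 3p arms was -0.23 on chromosome 4 and -0.033 on chromosome 5. Both seed groups therefore held a member from each cluster, and within each the chromosome 4 member had the lower value of the difference under the main processing.

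Members were also compared by how their arrays departed from the mean of their own group, which leaves surgery out. These are Pearson correlations over 8 arrays that share scaling and hybridization, given as a description. miR-200c-3p and miR-141-3p, of the same cluster, had r = 0.70, above 97.6% of the correlations of miR-200c-3p with 208 miRNAs outside the family detected on all 8 arrays. miR-200b-3p and miR-429 had r = 0.91, and miR-200b-3p and miR-200b-5p had r = 0.75. These lay above 100% and 94.2% of the correlations of miR-200b-3p with the same 208 miRNAs. miR-200a-3p, from the same cluster, had r = -0.20 with both miR-200b-3p and miR-429. Across the clusters, miR-200c-3p had r = -0.34 with miR-200b-3p and r = 0.54 with miR-200a-3p. The latter lay above 84.1% of the correlations of miR-200a-3p with the same 208 miRNAs.

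Of 208 miRNAs outside the family, those most like miR-200b-3p by this measure were miR-378a-5p (r = 0.90), miR-186-5p (r = 0.87) and miR-196c-5p (r = 0.85). Those most like miR-200c-3p were miR-347 (r = 0.76), miR-1896 (r = 0.75) and miR-542-3p (r = 0.75). Even so, miR-1896 differed by 0.53 ± 0.12 (SE) between nephrectomized and sham kidneys, on the opposite side of 0 from miR-200c-3p.

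Other miRNAs of epithelial cells showed no common direction past the test. Of 12 on the array, 8 were tested and 3 were detected on no array. The remaining miR-31a-5p was detected on 0 of 4 nephrectomized and 3 of 4 sham arrays and was not tested. Of the 8 differences, 6 were below 0, beside 52.5% of all tested miRNAs. Their median was -0.15, and 0 had an adjusted p under 0.05 by limma. At an unadjusted p under 0.05 there was 1, beside 20.2% of all tested miRNAs. It was miR-192-5p, an abundant miRNA of kidney tubules. It averaged 10.76 ± 0.019 in nephrectomized and 10.67 ± 0.018 in sham kidneys (SD, n = 4 each). The groups did not overlap, as for 14.7% of all tested miRNAs. The difference of miR-192-5p was 0.088 ± 0.030 (SE; limma adjusted p = 0.138). miR-30a-5p, of a family abundant in nephron epithelium, differed by -0.067 ± 0.034 (SE; limma adjusted p = 0.302). miR-203a-3p, best known from skin epithelium, differed by -0.17 ± 0.093 (SE; limma adjusted p = 0.322). miR-204-5p, a miRNA of kidney and pigment epithelium, differed by -0.13 ± 0.083 (SE; limma adjusted p = 0.383).

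All 9 miRNAs of mesenchymal cells and fibrosis were tested, and 6 differences were below 0 with a median of -0.025. By limma, 0 of 9 passed the adjusted threshold, and 2 had an unadjusted p under 0.05, 1 in each direction. Over all tested miRNAs, 52.5% were below 0 and 20.2% had an unadjusted p under 0.05, so these counts were near the background. miR-21-5p, which is known from injured and fibrotic kidney, differed by 0.22 ± 0.042 (SE; limma adjusted p = 0.0667). miR-155-5p, known from activated immune cells, differed by -0.16 ± 0.069 (SE; limma adjusted p = 0.246). miR-29b-3p, a repressor of collagen messages, differed by -0.18 ± 0.087 (SE; limma adjusted p = 0.284).

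Marker miRNAs of the cell types that a kidney sample can hold were set beside the family, since in whole tissue fewer cells of a type and less miRNA per cell cannot be told apart. All 5 tubule markers were detected on every array, and their summed level had a log2 of 12.47 to 12.54 in nephrectomized and 12.52 to 12.56 in sham kidneys. Within that sum, miR-192-5p differed by 0.088 and miR-10a-5p by -0.087 (limma adjusted p = 0.138 and 0.337). The groups did not overlap for either, as for 14.7% of all tested miRNAs, and overlapped for the other tubule markers. The sums of the leukocyte markers ran from 7.99 to 8.19 in nephrectomized and from 8.08 to 8.21 in sham kidneys, with 4 of 5 tested and a median difference of -0.093. Among them, miR-150-5p differed by -0.085 without overlap of the groups (limma adjusted p = 0.383), and the other tested ones overlapped. Both endothelial markers were tested, with sums of 10.15 to 10.24 in nephrectomized and 10.23 to 10.33 in sham kidneys. Among them, miR-126a-3p differed by -0.072 and miR-126a-5p by -0.11 (limma adjusted p = 0.302 and 0.258). The 4 smooth muscle and fibroblast markers had sums of 10.17 to 10.35 in nephrectomized and 10.24 to 10.31 in sham kidneys. Of 3 red cell markers, miR-451-5p was tested and miR-144-3p was detected on no array; their sums spread widely within both groups, from 5.62 to 6.87 in nephrectomized and from 5.55 to 6.58 in sham kidneys. The liver marker miR-122-5p was detected on none of the 8 arrays. The marker sums of the groups overlapped for the 5 cell types with detected markers, and their part in the members' values was not tested.

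Scaling every array by another constant moved all miRNAs alike, whereas the background correction did not. Scaling to the labelling control moved the median of all tested miRNAs to 0.070 and the differences of miR-200b-3p, miR-200a-3p and miR-429 to 0.044, 0.045 and 0.054, with miR-200c-3p, miR-141-3p and miR-200b-5p at -0.15, -0.14 and -0.12. Without scaling, that median was -0.29 and the 6 members ranged from -0.51 to -0.31. Such scalings leave each member where it was relative to the median of all tested miRNAs. Under quantile normalization 5 of 6 members were below that median and miR-429 was at 0.0051 itself, and with normexp 4 of 6 were below it. With the normexp background correction and its offset of 50, the median of all tested miRNAs was 0.13, and miR-200c-3p, miR-141-3p and miR-200b-5p differed by 0.14, 0.070 and 0.15. Of these, miR-200c-3p and miR-200b-5p passed the limma test in that direction (adjusted p = 0.0103 and 0.0059), as did 158 of the 238 miRNAs in either direction.

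**Figure D5:**
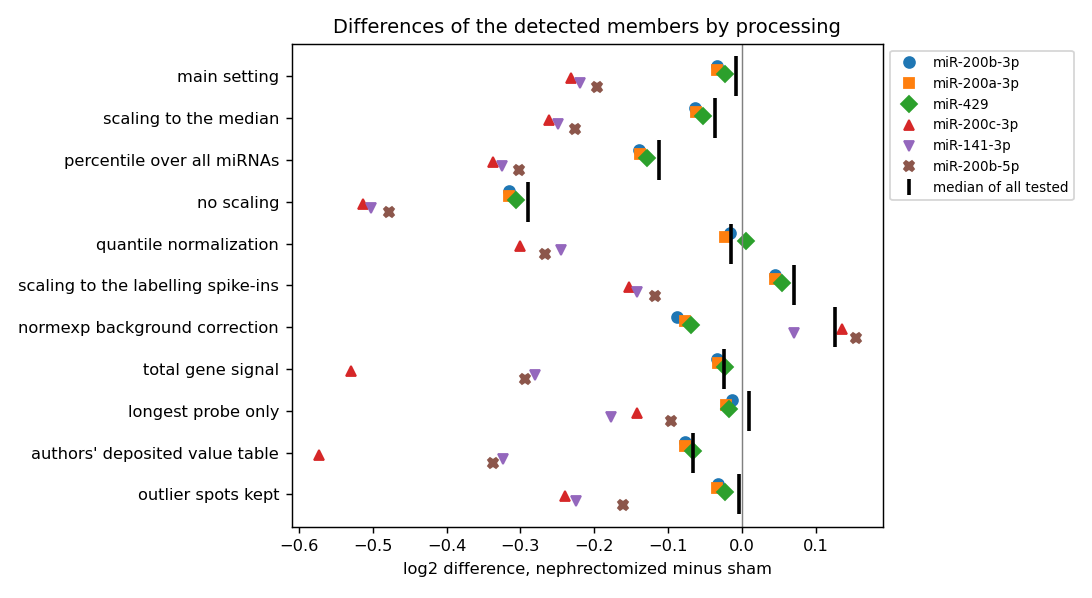
Log2 difference (horizontal axis, nephrectomized minus sham) of the 6 detected members under the main processing and 10 alternatives (rows), with the median of all tested miRNAs as a black bar. miR-200c-3p, miR-141-3p and miR-200b-5p lie left of 0 except with normexp; miR-200b-3p, miR-200a-3p and miR-429 stay near the bar in most rows, lie right of 0 when scaled to the labelling control, and miR-429 also under quantile normalization.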

How the data were processed

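RNA came from miRNeasy columns and carried Cy3 as its only dye, per the labels' protocols. Per the file headers, version 12.0.3.1 of Agilent's Feature Extraction wrote the deposited linear intensity of each spot, background-subtracted and spatially detrended, and other columns of 0 or 1 that mark detection and outlier spots. The deposited value table holds log2 values, which equalled the log2 total gene signal shifted per array and centred per miRNA (largest departure 1.1e-05); its direction is higher for more signal, and the rule behind the shift stays unknown. Its column medians ran from 0.052 to 0.17 in nephrectomized and from -0.25 to -0.052 in sham samples.

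Groups came from the sample titles, and each array was taken as 1 rat, which the labels do not state. The p-values therefore weigh a difference against the spread between these samples within a group. Each array held 12128 spots for 1806 probes, 18 of them for the family, and 715 control spots. Control and outlier spots (8.10% to 9.01%) were left out, and 0 spots were saturated. Spots were averaged per probe and probes per miRNA, divided by the 75th percentile of the 214 that every array detected, floored at 0.925 (5 values in 4 tested miRNAs, none of the family) and put on the log2 scale. The 238 miRNAs detected on at least 4 of 8 arrays were tested with limma 3.58.1 in R 4.3.3, two-sided, Benjamini-Hochberg threshold 0.05, checked on simulated data. Ratios had an exact two-sided permutation test (scipy 1.17.1), whose smallest p is 0.0286. Levels of different miRNAs were set against each other only in the brightness groups, the marker sums and the within-array ratios. miRNAs are named by fixed lists (the 8 members, 12 epithelial, 9 mesenchymal, cell type markers), with values for list members of lowest p, and the 3 most correlated with miR-200b-3p and with miR-200c-3p. The members and lists were chosen with earlier results of these data known. Alternatives covered scaling, background, probe summary, detection filter, floor, outlier spots, variance model, replicate block and left-out arrays. The number of arrays limits the precision.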

Additional observations from a re-analysis of the deposited data

Results flagged for a closer look

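In the 18-base probe of miR-429, sham replicate 4 had a log2 signal of 9.61, apart from the other 3 sham arrays, which lay between 9.545 and 9.554; the 17-base probe of the same miRNA had no array standing apart in this way. In the total gene signal of miR-200b-5p, nephrectomized replicate 4 had 12.6, against 8.48 to 9.17 on the other 3 nephrectomized arrays, and it was the 1 of 4 nephrectomized arrays on which the 13-base probe was counted. In the total gene signal of miR-200c-3p, sham replicate 1 had 8.22, against 13.4 to 14.4 on the other 3 sham arrays, and it was the 1 of 4 sham arrays on which the 14-base probe was not counted. These 3 came from a search of 66 groups of 4 arrays, in which chance alone gives about 1 in 20, or 3.3.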

How the results depend on the processing

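Over 24 alternatives for each of the 6 tested members, 137 differences were below 0 and 7 above, and 131 kept both their direction and their side of the adjusted threshold. Some alternatives left every member's difference as in the main setting, so that only p could move. They were the detection filters, the higher floor, the variance trend, the replicate block and the sum of all probe signals. Without scaling, all 6 passed, at -0.32 (miR-200b-3p), -0.32 (miR-200a-3p), -0.31 (miR-429), -0.51 (miR-200c-3p), -0.50 (miR-141-3p) and -0.48 (miR-200b-5p), beside a median of -0.29 over all tested miRNAs. Scaling to the labelling control turned miR-200b-3p, miR-200a-3p and miR-429 to 0.044, 0.045 and 0.054, and quantile normalization turned miR-429 to 0.0051. The normexp correction turned miR-200c-3p, miR-141-3p and miR-200b-5p to 0.14, 0.070 and 0.15, and the ratios of miR-200c-3p to miR-200b-3p, miR-200c-3p to miR-429, miR-141-3p to miR-200a-3p and miR-200b-5p to miR-200b-3p to 0.22, 0.20, 0.15 and 0.24 (exact permutation p adjusted over the pairs 0.0381, 0.0381, 0.0571 and 0.0381); the cause was not tested.

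The number of miRNAs past the adjusted threshold was 0, and 48 without adjustment. It was 161 without scaling, 158 with normexp (138 higher and 20 lower), 19 with the percentile over all miRNAs, 7 each with the total gene signal, the longest probe and a variance trend, 5 in the authors' deposited value table, 4 with a higher floor, and 1 each with quantile normalization, the labelling control and detection on all 8 arrays. Leaving out 1 array gave 0 to 5, the 5 without nephrectomized replicate 3. Leaving out 1 array moved miR-200b-3p between -0.056 and -0.0074, miR-200a-3p between -0.068 and -0.0078, miR-429 between -0.038 and -0.011, miR-200c-3p between -0.29 and -0.17, miR-141-3p between -0.31 and -0.16, and miR-200b-5p between -0.27 and -0.13.

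Samples share a replicate number, which is also the slide column, but their deviations did not run together (r = 0.053, -0.077, 0.28 and -0.23 for numbers 1 to 4), so the numbers were not taken as pairs. With the replicate block, limma's adjusted p was 0.314 for miR-200c-3p, 0.306 for miR-141-3p and 0.306 for miR-200b-5p, and the count past the threshold was 0. The sign-flip test of the ratios cannot go below 0.125 with 4 pairs. Signal over background limits miR-200c-3p, miR-141-3p and miR-200b-5p, whose shorter probes were mostly not well above background, and 4 against 4 arrays on 1 slide limit every difference.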
